A study of Mus musculus with 27 samples.

Results

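The genes described here were 40 genes of the lysosome, named in a list of soluble hydrolases, membrane proteins and a few regulators, of the 37991 genes quantified in the series. All 40 were found by symbol in every profile. By role they comprised legumain (Lgmn), 6 cysteine cathepsins, 3 other peptidases, 6 lysosomal membrane proteins, 10 glycosidases, 5 sulfatases and sulfamidases, 4 lipid hydrolases, 2 activator and cofactor proteins, 2 proteins of the proton pump and 1 transcription factor. The question put to them was whether the rise of Lgmn, one of the genes around the locus that the study followed, was shared by other lysosomal genes.

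The lysosome is the acid compartment in which proteins, glycans, glycosaminoglycans, glycogen and lipids are broken down to their building blocks. Its hydrolases are made in the endoplasmic reticulum, are tagged with mannose 6-phosphate in the Golgi and are activated at the low pH that the vacuolar proton pump (V-ATPase) maintains. Factors of the MiT/TFE family, of which TFEB is the best known, bind a short element around the letters CACGTG in promoters of many lysosomal genes. In bone, lysosomal proteases are best known from the osteoclast, which secretes them onto the bone surface, while in osteoblasts the lysosome takes part in the turnover of collagen and of cell surface glycans.

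The series consisted of 27 RNA sequencing profiles of cells from the calvaria, the flat bones of the skull vault, of neonatal C57BL/6J-Col3.6 CFP mice aged 5 to 9 days. All cells shared 1 genotype and 1 treatment, and the groups differed only in time. The mice carry cyan fluorescent protein under the Col3.6 promoter, a collagen type I promoter fragment that is active in pre-osteoblasts and osteoblasts but also in other collagen-producing cells. Digested calvarial cells were grown for 4 days, sorted once for the fluorescent protein and then cultured with ascorbic acid and beta-glycerol phosphate, and RNA was taken on days 2, 4, 6, 8, 10, 12, 14, 16 and 18. How many animals went into a culture was not given in the sources used here.

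Each day was covered by 3 profiles that carry 1 barcode and differ in the sequencing lane. The study describes them as triplicate samples. Since a shared barcode marks 1 library, they were added up here, which left 9 libraries of 22470195 to 62009158 estimated counts (profiles, 7331125 to 20888956) and no replicate culture within a day. Levels are given in TPM (RSEM's transcript abundance scaled to a fixed total), a measure per transcript length that can be compared between genes. They were scaled so that the upper quartile of all profiles agreed, and averaged over the 3 lanes of a day. Changes are log2 changes from day 2 to day 18 along a straight line in day, fitted to the 9 summed counts by edgeR, each with its standard error (SE) or 95% interval. A gene was said to rise or fall when its p, adjusted over all 15659 genes tested, was under 0.05. These p-values measure the spread of 9 libraries around the line. In a culture, more cells of a type and more RNA per cell cannot be told apart.

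Most of the lysosomal genes rose over the 9 days, but not all of them did. Of the 40 genes, 28 rose, 1 (Asah1) fell and 11 did not pass the test. Over all genes tested, 28.3% rose and 26.1% fell. The median log2 change of the 40 genes was 1.09, against 0.05 for all genes tested. Their summed level was 3533, 4699.6 and 5247 TPM on days 2, 4 and 6, then 4865, 5096 and 5930.5 TPM on days 8, 10 and 12, and 6169.6, 6171 and 6724 TPM on days 14, 16 and 18. This was a mean of 4493 ± 876 TPM on days 2 to 6 and of 6355 ± 320 TPM on days 14 to 18 (SD, n = 3 days each), a ratio of 1.41. As deposited, before the upper-quartile scaling, the ratio was 1.31. The 28 genes that rose had log2 changes from 0.54 to 3.03, and 15 genes had a larger estimate than Lgmn.

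**Figure D1:**
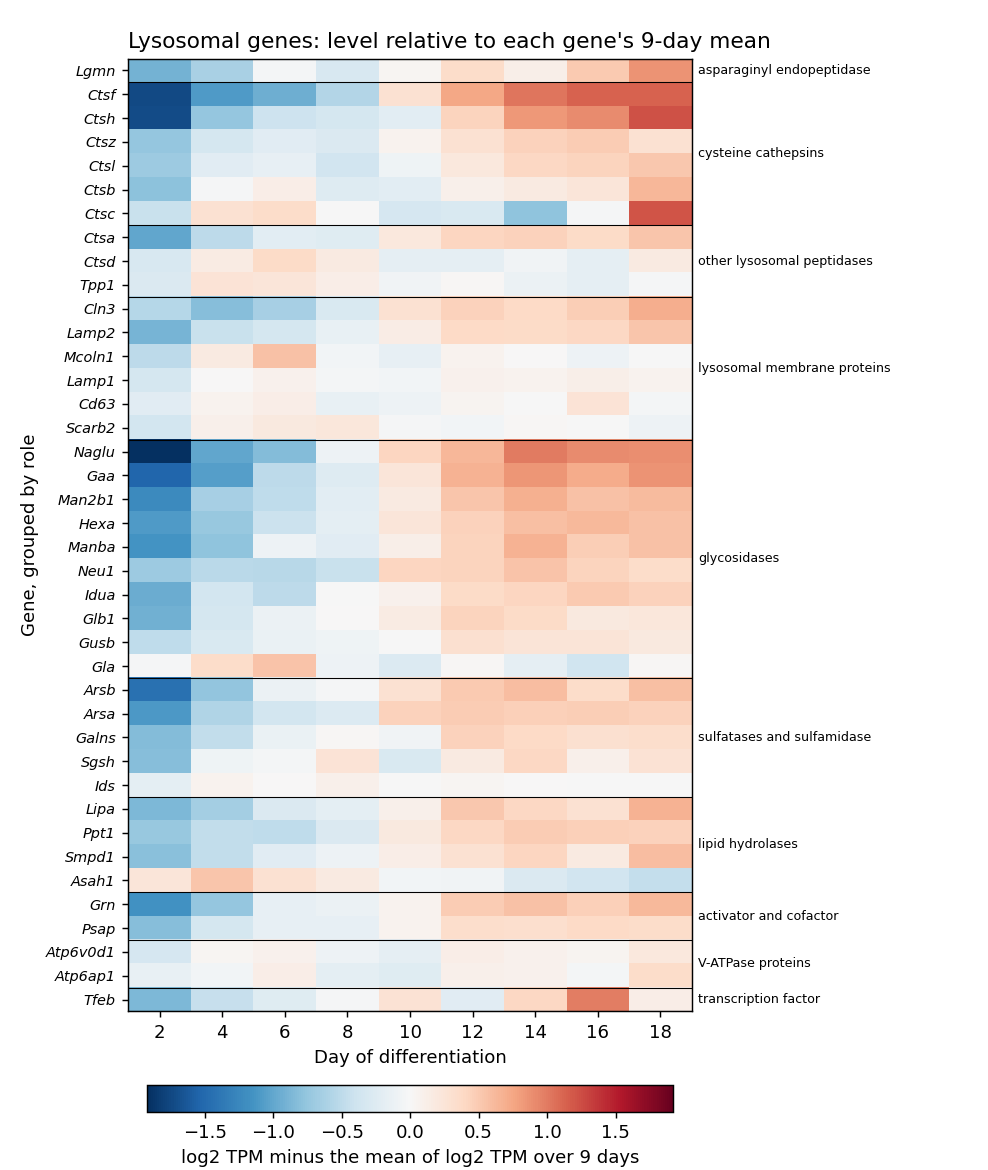
Level of each of the 40 lysosomal genes on days 2 to 18, as log2 TPM minus the gene's own mean of log2 TPM over the 9 days (colour bar, red for above and blue for below). Rows are grouped by role; day 2 is the lowest day for 35 of the 40 genes, and most glycosidases, cathepsins and sulfatases turn from blue to red around day 10, while Asah1 turns the other way.

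The level of Lgmn set the yardstick. Lgmn (ENSMUSG00000021190, chr12:103632294-103678023 on the minus strand of NCBIM37) encodes an endopeptidase that cuts after asparagine and matures several cathepsins. It stood at 19.4, 23.5 and 35.3 TPM on days 2, 4 and 6, at 29.4, 37.4 and 46.2 on days 8, 10 and 12, and at 39.4, 51.4 and 65.9 on days 14, 16 and 18. The rise was not steady, with lower values on days 8 and 14 than on the day sampled before, but the days 14 to 18 all lay above the days 2 to 6. On the line its log2 change was 1.22 (SE 0.148, 95% interval 0.89 to 1.54, edgeR adjusted p = 0.000122), and it rose under 22 of 22 alternative settings.

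Of the 40 genes, 36 have a window of 300 bases around an annotated transcription start in the RefSeq table of GRCm38.p6, from 250 bases before to 50 after the start. Asah1, Ctsb, Ctsh and Galns have none in that table. The letters CACGTG, which read the same on both strands, were in the windows of 15 of the 36 genes (41.7%), against 8.09% of all gene symbols in the table and 11.5% of the tested genes with a window. The longer TCACGTGA, which also reads the same on both strands and contains the shorter motif, was in 6 (16.7%), against 1.12% of all symbols and 2.12% of the tested genes. The sites below are a selection, shown because they belong to Lgmn, to 3 of the 4 genes with the largest changes, to all 6 genes with the longer motif, and to Lamp1 as a gene with the shorter motif that did not pass. Each is 30 bases long, 5′ to 3′ on the strand of the gene, with the motif in capitals. The number after the strand is the first base of the letters CACGTG counted from the start, also where the longer motif is in capitals.

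Lgmn, chr12:102439124-102439153, minus strand, -49: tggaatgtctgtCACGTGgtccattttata
Ctsf, chr19:4855074-4855103, plus strand, -79: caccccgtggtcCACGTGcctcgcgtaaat
Naglu, chr11:101070009-101070038, plus strand, -73: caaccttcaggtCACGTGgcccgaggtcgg
Gaa, chr11:119267811-119267840, plus strand, -140: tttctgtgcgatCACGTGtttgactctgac
Cln3, chr7:126583340-126583369, minus strand, -121: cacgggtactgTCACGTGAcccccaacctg
Ctsa, chr2:164833749-164833778, plus strand, -12: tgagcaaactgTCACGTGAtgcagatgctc
Ctsd, chr7:142387908-142387937, minus strand, -98: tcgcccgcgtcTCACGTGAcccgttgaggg
Gla, chrX:134601182-134601211, minus strand, -194: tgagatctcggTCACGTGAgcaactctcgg
Atp6v0d1, chr8:105566050-105566079, minus strand, -3: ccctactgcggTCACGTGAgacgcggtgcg
Mcoln1, chr8:3500462-3500491, plus strand, -45: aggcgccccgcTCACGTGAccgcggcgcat
Lamp1, chr8:13159088-13159117, plus strand, -61: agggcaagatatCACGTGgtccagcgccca

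The changes of genes with and without these letters can be set side by side. Of the 15 genes with CACGTG in the window, 10 rose and their median log2 change was 0.90, and of the 21 without it 15 rose and the median was 1.18. Of the 6 genes with TCACGTGA, only Cln3 and Ctsa rose, while Ctsd, Gla, Atp6v0d1 and Mcoln1 did not pass the test, and the median was 0.28. The 30 genes without it had a median of 1.19, and 23 of them rose. Lamp1, with 4 copies of CACGTG in its window, did not pass either. These are descriptions of letters in windows of fixed length and no test was made on them.

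Among the cysteine cathepsins, 5 of 6 rose, and the 6 genes summed to 508.5 TPM on day 2 and to 1459 TPM on day 18. Ctsf, which encodes cathepsin F, had the largest rise of all 40 genes. It stood at 7.07, 11.0 and 12.3 TPM on days 2 to 6, at 15.8, 28.7 and 39.2 on days 8 to 12 and at 47.6, 51.1 and 51.2 on days 14 to 18. Thus Ctsf did not fall on any day and levelled off from day 14 on. The log2 change was 3.03 (SE 0.268, 95% interval 2.44 to 3.63, adjusted p = 2.71e-05).

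Ctsh, which encodes an aminopeptidase of the same family, stood at 40.4, 79.4 and 100.4 TPM on days 2, 4 and 6, at 106, 116 and 178 on days 8, 10 and 12, and at 238, 250.1 and 309.5 on days 14, 16 and 18. It too was higher on every day than on the day sampled before, and its log2 change was 2.53 (SE 0.204, adjusted p = 1.92e-05). Ctsl, whose product is a broadly acting endopeptidase, was the third most abundant of the 40 genes, with 316, 441 and 458 TPM on days 2 to 6, 396, 486 and 588 on days 8 to 12 and 672, 686 and 730.0 on days 14 to 18. Its rise was smaller, at a log2 change of 0.86 (SE 0.125, adjusted p = 0.000297). Ctsz, a carboxypeptidase, rose by 1.04 on the log2 scale.

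Ctsb, one of the most abundant cathepsins, rose by 0.79 on the log2 scale (SE 0.215, adjusted p = 0.0102). The call rested on the ends of the series, since it was lost without day 2 (adjusted p = 0.0501) and without day 18 (adjusted p = 0.0721). Ctsc, whose product activates serine proteases of immune cells, was the only cysteine cathepsin gene of the 6 that did not pass. Its level ran at 5.69, 9.37 and 9.70 TPM on days 2 to 6, at 7.56, 6.07 and 6.23 on days 8 to 12 and at 4.45, 7.53 and 17.5 on days 14 to 18. The level on day 18 stood apart from all other days, and the line had a wide interval (log2 change 0.46, 95% interval -0.56 to 1.49). With a natural spline in place of the line, Ctsc rose (log2 change 1.18, edgeR adjusted p = 0.000251).

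The other peptidases differed among themselves. Ctsa, a serine carboxypeptidase that also protects the lysosomal sialidase and beta-galactosidase, had 141 TPM on day 2 and 407 on day 18, with a log2 change of 1.14 (SE 0.172, adjusted p = 0.000371). Ctsd, the aspartic protease of the lysosome, was the most abundant of the 40 genes and did not pass. It stood at 761, 1051 and 1218 TPM on days 2 to 6, at 1062, 837 and 833 on days 8 to 12 and at 895, 831 and 1062 on days 14 to 18. The highest level was on day 6, and early and late days overlapped. The log2 change of Ctsd was -0.07 (95% interval -0.50 to 0.37, adjusted p = 0.797), and its sign turned in several alternative fits.

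Tpp1, which removes tripeptides from protein ends, followed a like course, with 57.9, 83.7 and 82.3 TPM on days 2 to 6, 76.8, 66.6 and 71.0 on days 8 to 12 and 65.0, 61.9 and 69.1 on days 14 to 18. Its lowest level was on day 2 and its highest on day 4. On the line it did not pass (log2 change -0.26, 95% interval -0.63 to 0.11), but without day 2 it fell (log2 change -0.50, adjusted p = 0.0109).

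Of the lysosomal membrane proteins, 2 of 6 rose. The paired glycoproteins Lamp1 and Lamp2, which line the lysosomal membrane, had nearly the same mean level, 359.7 and 359.9 TPM, but differed in course. Lamp2 stood at 184, 255 and 271 TPM on days 2 to 6, at 310.3, 378 and 448 on days 8 to 12 and at 442, 453 and 497 on days 14 to 18. Lamp1 stood at 284, 359 and 379.9 TPM on days 2 to 6, at 351, 345 and 380.1 on days 8 to 12 and at 375, 387 and 376 on days 14 to 18. Thus the late days of Lamp2 all lay above its early days, whereas Lamp1 changed mainly between days 2 and 4. The log2 change was 1.20 for Lamp2 (SE 0.163, adjusted p = 0.000214) and 0.17 for Lamp1 (95% interval -0.09 to 0.42, adjusted p = 0.239).

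Cln3, a membrane protein whose loss causes a childhood neuronal storage disease, had 6.54 to 7.84 TPM on days 2 to 6 and 15.0 to 18.6 TPM on days 14 to 18, with a log2 change of 1.65 (SE 0.218, adjusted p = 0.000189). The tetraspanin gene Cd63, the second most abundant of the 40 genes, stood at 500.0, 611 and 634 TPM on days 2 to 6, at 526, 542 and 604 on days 8 to 12 and at 580.1, 700.4 and 569 on days 14 to 18. Its early and late days overlapped, and its log2 change was 0.08 (95% interval -0.22 to 0.37).

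Scarb2, the receptor that carries glucocerebrosidase to the lysosome, stood at 15.5, 21.1 and 22.5 TPM on days 2 to 6, at 23.1, 19.5 and 19.2 on days 8 to 12 and at 20.1, 19.8 and 18.5 on days 14 to 18. After day 2 it stayed between 18.5 and 23.1 TPM, and the log2 change of -0.10 did not pass (95% interval -0.50 to 0.30). Mcoln1, which encodes a cation channel of the lysosomal membrane, had its highest level, 18.8 TPM, on day 6 and did not pass (log2 change 0.35, 95% interval -0.03 to 0.74). Without day 6 it did (0.44, adjusted p = 0.0459), as it did with the lane profiles taken as separate samples (adjusted p = 0.00668).

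Of the glycosidases, 9 of 10 rose, and the median log2 change was 1.37. They summed to 160.7 TPM at the start (day 2) and to 525.7 TPM at the end (day 18), a mean of 215 TPM on days 2 to 6 and of 522 on days 14 to 18. Naglu, which encodes an enzyme of heparan sulfate breakdown, had the second largest rise of all 40 genes. It stood at 2.53, 4.80 and 5.39 TPM on days 2 to 6, at 8.96, 12.7 and 14.9 on days 8 to 12 and at 19.2, 18.0 and 17.7 on days 14 to 18. The climb ended on day 14, and the log2 change was 2.83 (SE 0.387, 95% interval 1.97 to 3.69, adjusted p = 0.00022).

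Gaa, whose product degrades glycogen, was the most abundant glycosidase gene, with 45.9, 63.5 and 93.0 TPM on days 2 to 6, 111, 155 and 209 on days 8 to 12 and 237, 217 and 239.6 on days 14 to 18. Its log2 change was 2.21 (SE 0.248, adjusted p = 8.76e-05). Man2b1, the lysosomal alpha-mannosidase, stood at 12.1, 18.1 and 20.0 TPM on days 2 to 6, at 24.4, 32.0 and 40.7 on days 8 to 12 and at 45.6, 41.5 and 43.2 on days 14 to 18. Both reached their late level by days 12 to 14, and Man2b1 had a log2 change of 1.79 (SE 0.218, adjusted p = 0.000123).

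The other 6 glycosidases that rose had log2 changes from 0.71 for Gusb, the beta-glucuronidase, to 1.68 for Hexa, the alpha chain of beta-hexosaminidase. Between them lay Glb1 at 0.90, Idua at 1.18, Neu1 at 1.32 and Manba at 1.41. Neu1, the sialidase, was among the lowest of the 40 genes in level and lost its call without day 2 (adjusted p = 0.0579). Gla, the alpha-galactosidase A gene, was the exception among the glycosidases. It stood at 10.2, 13.3 and 15.1 TPM on days 2 to 6, at 9.71, 8.64 and 10.5 on days 8 to 12 and at 9.26, 8.01 and 10.5 on days 14 to 18. Early and late days overlapped, and the log2 change of -0.47 did not pass (95% interval -1.02 to 0.08). Without day 18 it did (-0.76, adjusted p = 0.0424).

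**Figure D2:**
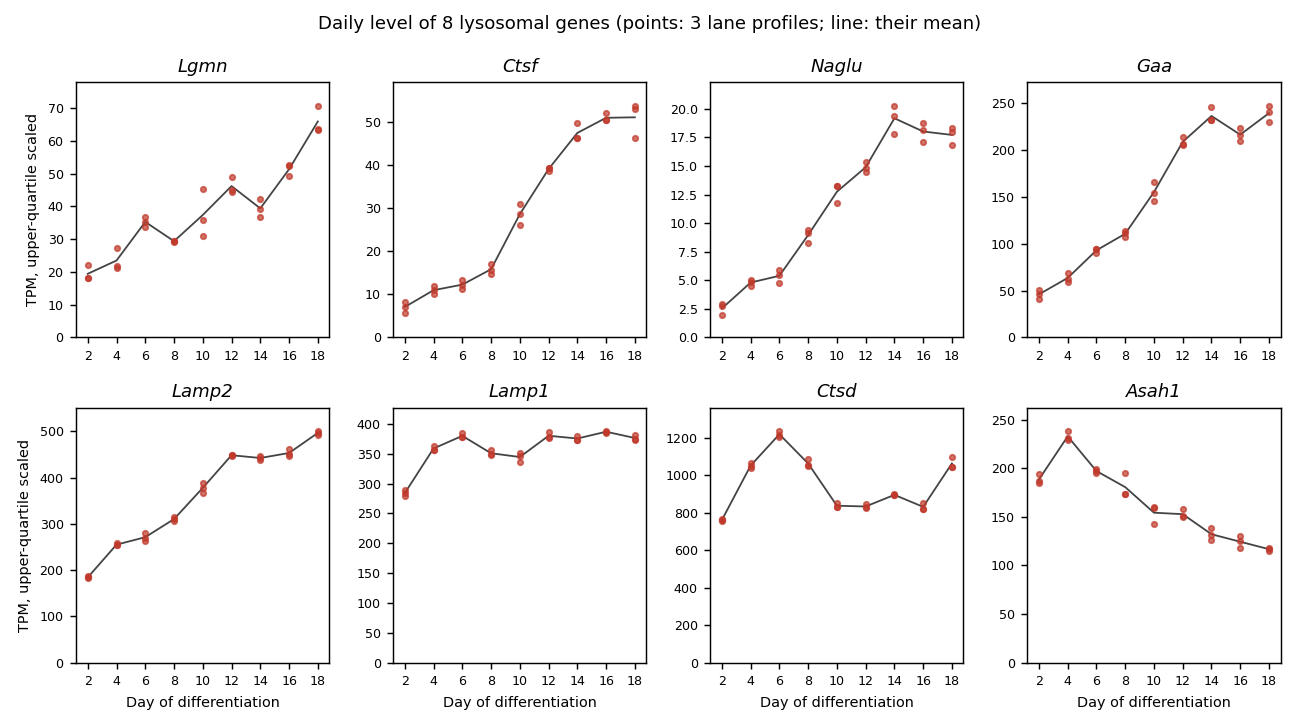
Daily level of 8 lysosomal genes in upper-quartile scaled TPM (vertical axis, linear from 0) against day of differentiation, with the 3 lane profiles of a day as points and their mean as a line. Lgmn, Ctsf, Naglu, Gaa and Lamp2 are higher on days 14 to 18 than on days 2 to 6, Lamp1 and Ctsd overlap between these days, and Asah1 declines after day 4, from 233 to 117 TPM.

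Sulfatase genes, whose products remove sulfate from glycosaminoglycans and sulfolipids, rose in 4 of 5 cases. Arsb had a log2 change of 1.66, Arsa 1.45, Galns 1.05 and the sulfamidase gene Sgsh 0.54. The rise of Sgsh was the weakest of the 28 calls, with an adjusted p of 0.0333, and was lost without day 2 (adjusted p = 0.162), day 14 (0.0589) or day 18 (0.0761). Ids, which encodes the iduronate sulfatase, had the smallest estimate of the group, at 32.0 TPM on day 2 and between 36.3 and 39.0 on the other days (log2 change -0.04, 95% interval -0.28 to 0.19).

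The lipid hydrolases held both directions. Lipa, the acid lipase that frees cholesterol from its esters, had a log2 change of 1.38, Ppt1, a thioesterase that removes palmitate from proteins, 1.33, and Smpd1, the acid sphingomyelinase, 1.13, with adjusted p from 0.00014 to 0.000319. Asah1, the acid ceramidase, was the only one of the 40 genes that fell. It stood at 188, 233 and 197 TPM on days 2 to 6, at 181, 154 and 153 on days 8 to 12 and at 132, 124 and 117 on days 14 to 18. Asah1 was thus highest on day 4 and lower on every later day than on the one sampled before, with a log2 change of -1.06 (SE 0.141, 95% interval -1.37 to -0.75, adjusted p = 0.000194).

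Psap, the precursor of the saposins that present lipids to their hydrolases, and Grn, the precursor of the granulins, both rose. Grn had 148 TPM on day 2 and 506 on day 18 (log2 change 1.55, SE 0.23, adjusted p = 0.000342), and Psap from 91.3 to 206 TPM (1.01, SE 0.151, adjusted p = 0.000359). The genes of the proton pump did not pass. Atp6v0d1, a subunit of its membrane sector, had a log2 change of 0.22 (95% interval -0.05 to 0.48) and Atp6ap1, an accessory protein, one of 0.12 (95% interval -0.12 to 0.36). Tfeb, listed in the annotation as Tcfeb, had the lowest level of the 40 genes, at 1.32 TPM on day 2 and at most 4.76 TPM, on day 16. It rose by 1.53 on the log2 scale (SE 0.333, adjusted p = 0.00299). Its precision was limited by 53 to 193 counts per day, and its lane profiles had a coefficient of variation of up to 77.0%.

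**Figure D3:**
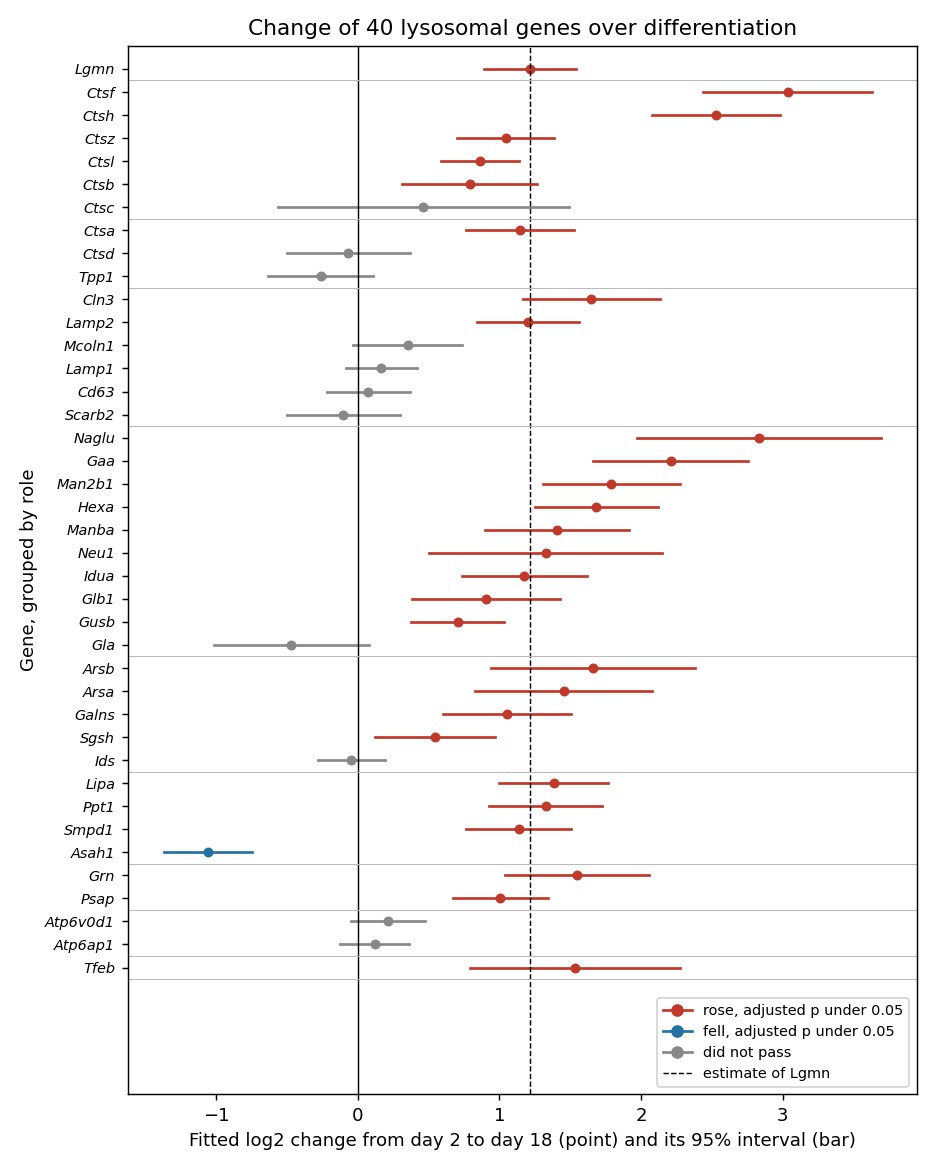
Fitted log2 change from day 2 to day 18 for each of the 40 genes (points) with its 95% interval (bars), in blocks by role, red for genes that rose, blue for the one that fell and grey for those that did not pass. The dashed line marks the estimate of Lgmn at 1.22, without the interval of Lgmn. Ctsf, Naglu, Ctsh, Gaa, Man2b1 and Hexa lie to its right with their whole intervals, and Lamp1, Ctsd, Cd63 and the proton pump genes to its left. In the fit relative to Lgmn, Ctsf, Naglu, Ctsh and Gaa were higher, while Man2b1 and Hexa did not pass.

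The question of a shared rise was tested by fitting each gene relative to Lgmn, with the Lgmn count of each library as the offset. The difference of slopes passed for 17 of 39 genes, 13 lower and 4 higher than Lgmn. Of all 15658 genes so tested, 60.5% were lower and 9.20% higher. The median difference was -0.15 for the 39 genes and -1.16 for all genes. Higher than Lgmn were Ctsf by 1.84 (95% interval 1.18 to 2.49), Naglu by 1.65 (0.78 to 2.53), Ctsh by 1.34 (0.84 to 1.85) and Gaa by 1.01 (0.41 to 1.61). Without day 18, the highest day of Lgmn, 8 genes were higher in place of 4.

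Lower than Lgmn were Asah1 with a difference of -2.27, Gla with -1.68 and Tpp1 with -1.47, followed by Scarb2, Ctsd, Ids, Cd63, Atp6ap1, Lamp1, Atp6v0d1, Mcoln1, Sgsh and Gusb, the last with -0.49. Sgsh and Gusb had themselves risen. For the other 22 genes a difference from Lgmn was not detectable. For Lamp2 it was -0.01 (95% interval -0.50 to 0.48), for Idua -0.03 (-0.60 to 0.54), for Ctsa -0.06 (-0.53 to 0.41) and for Smpd1 -0.08 (-0.52 to 0.36), so that for these genes differences of up to about these bounds could not be seen. These genes had the smallest differences. For others the bounds lay further out, as for Ctsc (-0.79, -1.65 to 0.07) and Tfeb (0.35, -0.54 to 1.25). All of these comparisons share the Lgmn counts of 755 to 2410 per day.

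By stage, genes were called only in the step from the early to the middle days. The size of this step was not tested against that of the step from middle to late days. With days 2 to 6, 8 to 12 and 14 to 18 as 3 groups, in which days stand in for replicates, 21 of the 40 genes rose from early to middle days and 0 fell, against 17.3% and 13.6% of all genes tested. The median log2 change was 0.58, against 0.06 for all genes. Naglu had the largest estimate (1.53, SE 0.285, adjusted p = 0.00672), followed by Ctsf (1.45, adjusted p = 0.00742) and Gaa (1.18, adjusted p = 0.00621). Ctsh (0.84, adjusted p = 0.0534) and Lgmn itself (0.44, adjusted p = 0.125) did not pass. This count depended on single libraries, with 13 genes without day 2 and 8 without day 4, day 10 or day 12.

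From middle to late days, 0 of the 40 genes rose and 0 fell by edgeR's adjusted p, as did 0% of all genes tested in either direction. At an unadjusted p under 0.05 there were 4 of the 40 genes, Ctsh, Ctsf, Ctsl and Asah1, and 2557 of all 15659 genes tested. This was a smaller share of the 40 genes than of all genes. Without day 12, 149 of 16100 genes rose and 204 fell by adjusted p, but still 0 of the 40 genes rose. The estimate was positive for 35 of 40 genes, with a median log2 change of 0.22 against -0.01 for all genes. Both steps share the middle days.

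Without a model, the 3 late days lay above the 3 early days in TPM for 28 of the 40 genes, where 32.4% of all genes tested did so. Below the early days lay 1 gene (25.6% of all genes tested), and 11 genes overlapped. The first step of the series was common to nearly all 40 genes, since 39 were higher on day 4 than on day 2, against 60.1% of the 13360 genes with a mean of 1 TPM or more. The one exception was Cln3. The median log2 difference from day 2 to day 4 was 0.43 for the 40 genes and 0.08 for those 13360. With 1 library per day this step has no replicate check.

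In level, the 40 genes spanned from 2.57 TPM for Tfeb to 950 for Ctsd as a mean over 9 days, and all 40 reached 1 TPM on each of the 9 days. The most abundant were Ctsd, Cd63, Ctsl, Lamp2 and Lamp1, of which Ctsl and Lamp2 rose. The 28 genes that rose had a median of 37.3 TPM and the 11 that did not pass a median of 70.5 TPM. Counts were whole numbers in all profiles for 30 of the 40 genes, of which 20 rose and 1 fell, with a median log2 change of 1.09. The other 10, Ctsb, Ctsa, Ctsd, Cd63, Cln3, Glb1, Idua, Arsa, Arsb and Sgsh, had reads that RSEM divided with other genes, and their levels are less certain by that share. Glb1 has a second gene identifier at 1.75 to 2.72 TPM, and the identifier with more counts was used.

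Genes of the same compartment outside the 40 were read from further lists, beside the 28.3% of all genes tested that rose and the 26.1% that fell. Of 20 other hydrolases and lumenal cofactors, 14 rose and 1 fell, with a median log2 change of 0.86. The largest rise was that of Ctss, a cathepsin of antigen-presenting cells (6.01, SE 0.415, 0.805 TPM on day 2 and 43.6 on day 18), and the one fall that of Galc, the galactosylceramidase (-0.73, SE 0.231, adjusted p = 0.0204). Of 12 other membrane proteins 6 rose and 1 fell, from 2.59 for the transporter gene Abca2 to -0.51 for Tmem192.

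Of the remaining 13 subunits and accessory proteins of the V-ATPase 8 did not pass, with 1 rise, Atp6v0a1 (0.49, SE 0.14), 4 falls, the largest that of Atp6v1c1 (-0.71, SE 0.185), and a median log2 change of -0.02. Among 6 genes of mannose 6-phosphate tagging and sorting, 3 rose and 2 fell. Sort1, an alternative sorting receptor, rose by 3.15 (SE 0.379), whereas Igf2r, the large mannose 6-phosphate receptor, had a log2 change of -1.49 (SE 0.312) and M6pr, the small one, of -0.76 (SE 0.192). Of 3 tested cystatins, inhibitors of the cysteine cathepsins, the secreted Cst3 rose from 173 to 1903 TPM between days 2 and 18 (log2 change 3.99, SE 0.318) and the cytosolic Cstb fell by 0.59 on the log2 scale. Cst7, also an inhibitor, had 12 counts in all and was not tested.

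Markers of other cells rose over the same days. Their counts stand beside the 28.3% of all genes tested that rose and the 26.1% that fell. Of 7 monocyte and macrophage markers 6 rose, most of all Emr1 (log2 change 7.73). Their summed level ranged from 24.1 to 61.7 TPM on days 2 to 6 and from 522 to 2014 TPM on days 14 to 18. Most of that sum was Lyz2, with 19.9 TPM on day 2, 172 on day 10 and 1855 on day 18. Of 8 osteoclast markers 6 were tested and 4 rose, while Oscar and Ocstamp did not pass. Their sums were 37.6 to 86.2 TPM early and 209 to 219 TPM late, most of which was Ctsk. Ctsk is also among the 20 other hydrolases and cofactors above and rose there too. Atp6v0d2 rose most (log2 change 5.21), and the defining markers Tm7sf4 and Calcr were at 0 on all days. All 5 adipocyte markers rose, from sums of 3.21 to 7.44 TPM to sums of 188 to 407, with Cfd rising most. Of 4 mast cell markers 2 rose, Kit (log2 change 7.69) and Cpa3 (5.37), Fcer1a and Mcpt4 were at 0, and the sum was at most 1.76 TPM on days 14 to 18. Of 4 endothelial markers 2 rose, Tek most (2.97), and Kdr fell (-3.27), at sums of 8.84 to 12.0 TPM late. All 6 proliferation markers fell, from sums of 361 to 424 to 134 to 151 TPM, Ccnb1 most. Osteoblast and osteocyte markers, which bear on the label of the cells, summed to 3001 to 5280 TPM early and 7644 to 9330 late. Most of that sum was Col1a1 and Col1a2, which other collagen-producing cells also express. They had 1526 and 983 TPM on day 2 and 4263 and 4114 TPM on day 18. Of these 11 markers 7 rose, Bglap, the osteocalcin gene, most (11.27 along the line). Bglap had 1.24 TPM on day 2, 1.88 on day 10 and 208 on day 18, a course that a straight line describes poorly. Sp7, a defining factor of the lineage, had 32.3 TPM on day 2, 3.27 on day 10 and 10.6 on day 18. It did not pass (log2 change -1.23), nor did Spp1 (-1.17) or Alpl (2.22). Spp1 had 402, 285 and 532 TPM on these days, so it ended above its start although the line was negative. Alpl had 9.13, 11.7 and 17.6 TPM. Sost had 0.106 TPM on day 18 and was not tested.

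**Figure D4:**
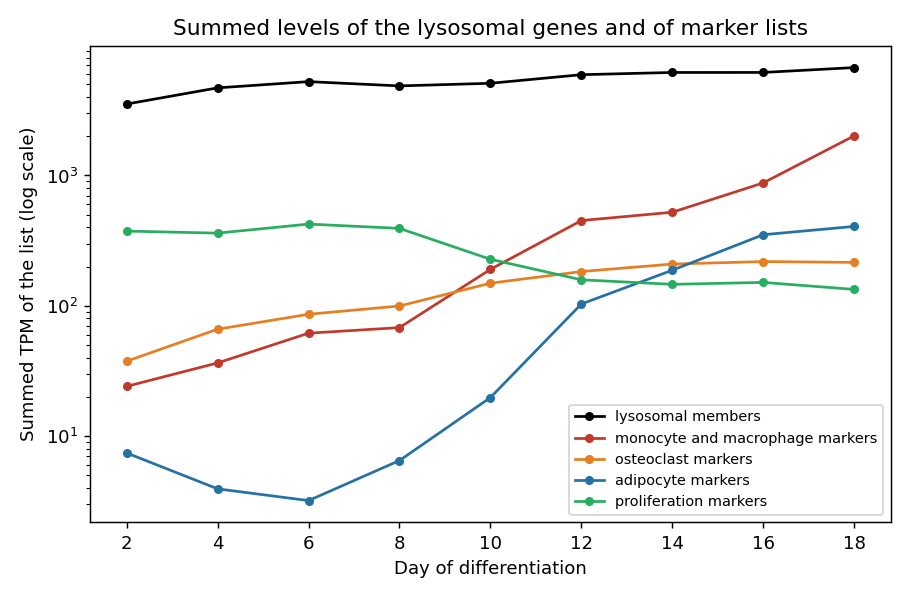
Summed TPM (log axis) of the 40 lysosomal genes and of 4 marker lists on each day of differentiation. The lysosomal sum goes from 3533 to 6724 TPM. The macrophage markers go from 24.1 to 2014 TPM, most of which is Lyz2 (19.9 and 1855 TPM). The adipocyte markers go from 7.44 to 407 TPM, mostly after day 10.

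Over days 2 to 10 alone, a restriction chosen after the levels had been seen, 24 of the 40 genes rose and 0 fell. Of all 15213 genes tested there, 2561 (16.8%) rose and 2219 fell. Over these days the adipocyte markers summed to at most 19.8 TPM. From day 2 to day 10 the macrophage markers went from 24.1 to 190.5 TPM and the osteoclast markers from 37.6 to 149 TPM. Most of the macrophage sum was Lyz2 (19.9 and 172 TPM), and 4 of the 7 macrophage markers rose over these days. Naglu, Ctsf, Gaa and Lgmn rose in this range, while Ctsb, Ctsl, Sgsh and Tfeb, which rose over all days, did not pass with 5 libraries. Their slopes over days 2 to 10, on the scale of day 2 to day 18, were 0.69 for Ctsb, 0.75 for Ctsl, 0.86 for Sgsh and 2.41 for Tfeb, against 0.79, 0.86, 0.54 and 1.53 over all days. The fall of Asah1 was not called there either (adjusted p = 0.179). The part of macrophages, osteoclasts and adipocytes in the change of the lysosomal genes was not tested.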

How the data were processed

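The 27 RNA sequencing profiles of the mouse calvarial cultures were used. Per the file headers, the authors deposited RSEM's expected count of each gene, which is not normalized, from reads aligned with Bowtie (0.12.9 in the submitters' processing notes, which name RSEM 1.2.8) to the NCBIM37 transcriptome. The authors also deposited TPM, the transcript abundance scaled to a fixed total, and FPKM, which scales fragments to gene length and aligned depth and served in 1 alternative only. RNA had been amplified before library construction, and strand was not stated.

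The 3 lane profiles of a day were summed and rounded. The line in day, the 3 groups of 3 days and the fit relative to Lgmn used edgeR 4.0.16 in R 4.3.3 (quasi-likelihood F test, upper-quartile factors, genes kept by filterByExpr at a minimum count of 10, Benjamini-Hochberg adjusted p under 0.05 over all genes). TPM were divided by the 75th percentile of values above 0 of each profile. Alternatives used TMM factors, DESeq2 1.42.0, limma 3.58.1 on log2(TPM + 0.5), a natural spline with 3 degrees of freedom, other filters, and each day or replicate left out. In simulated counts of 15373 genes for the line, 200 genes were changed and the spread was that around a natural spline. Of genes changed by 1 log2 unit 67.7% and of those changed by 2 log2 units 78.8% were recovered, and 9.94% of 161 calls were false. In the data 8510 genes were called along the line, so these rates need not hold there.

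The members and all gene lists were chosen with earlier results of these data known. All 40 members are accounted for. Full statistics were given to Lgmn, the 5 largest rises, the 5 lowest estimates and the 5 highest mean TPM, and to members whose call changed without 1 day, which were chosen after their values were seen. Of each further list the largest rise and fall and any defining marker at 0 were named. Promoter windows came from RefSeq (GRCm38.p6), and gene positions from the NCBIM37 annotation. Figures were drawn with matplotlib 3.10.9 in Python 3.11.15.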

Additional observations from a re-analysis of the deposited data

How the results depend on the processing

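Of 460 values recomputed under the alternatives planned at the start, 429 kept their direction and call, or, for counts, stayed within 1.5 times. The number of lysosomal genes that rose along the line was 25 to 29 when 1 day or 1 replicate was left out, and the number that fell 1 to 2; 2 fell with the natural spline, whose test asks for any change over the days. With the 27 lane profiles as separate samples, as the study describes them although they share a barcode, 32 rose and 3 fell without the replicate block and 31 rose and 3 fell with it. After scaling to depth, deviations of profiles with the same replicate number had a mean correlation of 0.000117, the lowest being -0.143. These are deviations between lanes of 1 library, so they cannot show whether a number marks the same lane on each day. Replicate 1 had the fewest counts on every day. Over days 2 to 10 only, added after seeing the data, 0 fell, and 4780 in place of 8510 of all genes changed. From early to middle days the rises ranged from 8 to 25 and the falls from 0 to 1 with 1 day or replicate left out. Relative to Lgmn, 11 to 13 genes were lower and 4 to 8 higher. The ratio of summed levels was 1.309 in TPM as deposited and 1.4 without mitochondrial genes.

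Over the 40 genes, signs turned only for those that had not passed, among them 4 of the 15 genes with full statistics. The log2 change of Ctsd was 0.23 over days 2 to 10, 0.34 with the spline (adjusted p = 0.00824), and 0.012, 0.0030 and 0.028 without days 16, 4 and 6 (-0.27 to 0.028 over all days or replicates left out). That of Scarb2 was 0.65 over days 2 to 10, 0.0165 with limma on TPM and 0.16 with the spline. That of Tpp1 was 0.21 over days 2 to 10 and 0.036 with the spline (adjusted p = 0.0178). That of Cd63 was -0.033 without day 16 and -0.0090 without day 2 (up to 0.15, without day 18). The cause was not tested. The fewest counts on the lowest day were those of Tfeb, Neu1, Naglu and Ctsc, at 53, 140, 144 and 146.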

Other observations

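Autophagosomes deliver cell contents to the lysosome, and 17 genes of that pathway were read beside the lysosomal genes. Of these 5 rose and 3 fell, where 28.3% and 26.1% of all genes tested did so, and the share that rose was near that of all genes. The median log2 change was 0.21. Map1lc3b, which encodes a coat protein of the autophagosome, rose by 1.22 on the log2 scale (SE 0.143, adjusted p = 0.000104), from 74.4 TPM on day 2 to 187 on day 18. Wipi1 and Ulk1, which act at the start of autophagosome formation, rose by 0.58 and 0.64. Becn1, part of the lipid kinase complex of the pathway, had a log2 change of -0.67 (SE 0.125, adjusted p = 0.00127), and Uvrag, a partner of its product, one of -0.50.

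Of 12 other genes of the MiT/TFE family and of the platform at which mTORC1 is switched on at the lysosomal surface, 4 rose and 1 fell, a share of rises that also lay near the 28.3% of all genes tested. Mitf, a relative of Tfeb, rose by 2.01 (SE 0.256, adjusted p = 0.000154) at a level of 1.14 TPM on day 2 and 3.96 on day 18. Rragd and Flcn, which encode regulators on that platform, rose by 0.93 and 0.56. Lamtor3, a subunit of its scaffold, had a log2 change of -0.34 (SE 0.126, adjusted p = 0.0416). Tfe3, the most abundant of the family here at a mean of 26.8 TPM, did not pass (0.13, adjusted p = 0.496).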
